A study of Homo sapiens with 6 samples.

Results

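The microRNA and RNA interference machinery was followed here through 10 genes, taken as the probe sets that the platform annotation assigns to DROSHA, DGCR8, XPO5, DICER1, TARBP2, AGO1, AGO2, AGO3, AGO4 and TNRC6A. All 10 were found, each with 1 probe set, among 18417 genes in all. Each had a mean over the arrays above 4.04, the level of the median gene. Expression was measured on 6 Affymetrix arrays in A673 and SK-N-MC, established cell lines of Ewing sarcoma, which is a tumour of bone and soft tissue. Each line was transfected with an siRNA against DKK2 (siDKK2), an siRNA against ITM2A (siITM2A) or a non-silencing control siRNA, with 1 array per line and siRNA. DKK2 is a secreted Wnt pathway modulator and ITM2A a membrane protein. The DKK2 siRNA carries the number 1 in both lines, and the ITM2A siRNA the number 7 in A673 cells and 1 in SK-N-MC cells, so the oligonucleotide may differ between the lines. The time after transfection is not given in the sources used here. The 2 lines are the replicates of an siRNA, and repeat cultures of a condition are not described. A p-value therefore weighs the size of a difference against the unevenness between the lines, pooled over the 3 siRNAs and moderated over all genes.

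MicroRNAs are made in steps that these genes carry out in order. The nuclease DROSHA and its RNA-binding partner DGCR8 cut the primary transcript in the nucleus, exportin 5 (XPO5) carries the hairpin to the cytoplasm, and DICER1 with its partner TARBP2 trims it to a short duplex. One strand is loaded into an Argonaute protein (AGO1 to AGO4), and the scaffold TNRC6A links Argonaute to the enzymes that deadenylate and decap the target mRNA. Transfected siRNA duplexes enter this route at the loading step, and AGO2 is the Argonaute that slices perfectly matched targets in human cells. DICER1 itself is a known target of microRNAs, among them the let-7 family and miR-103 and miR-107.

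The mature sequences below are shown because they are the known microRNA regulators of DICER1, together with miR-21, whose precursor probe set set the lines apart. They are RefSeq entries of GRCh38.p14, written 5′ to 3′ with the seed, bases 2 to 8, in capitals.
hsa-let-7a-5p: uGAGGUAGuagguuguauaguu
hsa-miR-103a-3p: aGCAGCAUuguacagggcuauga
hsa-miR-107: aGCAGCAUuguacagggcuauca
hsa-miR-21-5p: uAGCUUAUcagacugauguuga
These stand at chr11:122146568-122146589 on the minus strand for let-7a (1 of 3 entries of that sequence), chr20:3917541-3917563 on the plus strand for miR-103a (1 of 2 entries), chr10:89592756-89592778 on the minus strand for miR-107 and chr17:59841273-59841294 on the plus strand for miR-21. The miR-103a and miR-107 sequences share their seed.

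Array medians lay between 3.35 and 3.44 over 33297 probe sets, and arrays correlated at 0.986 to 0.991 within a line and at 0.959 to 0.965 across lines. All levels are log2 RMA values, and differences between them are log2 differences. DKK2 measured 7.73 in A673 cells and 6.50 in SK-N-MC cells with siDKK2, and 9.13 and 7.94 with siITM2A, against 8.64 and 8.01 with the control siRNA, so that siDKK2 left 53% and 35.1%. ITM2A measured 5.03 and 6.10 with siITM2A, and 9.21 and 9.66 with siDKK2, against 8.52 and 9.48 with the control siRNA, so that siITM2A left 8.86% and 9.55%. Among 8 measured Ewing sarcoma markers 7 had a mean at or above the median gene, GLI1 being the exception at 2.86. The 13 measured markers of leukocytes, epithelium, endothelium and muscle ranged between 1.90 and 4.05, with 0 of them at or above the median gene.

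DICER1, the nuclease of the cytoplasmic step, had the largest difference of the 10 with either targeting siRNA, downward in both lines. It measured 6.95 in A673 cells and 7.19 in SK-N-MC cells with siDKK2, and 7.23 and 7.40 with siITM2A, against 7.60 and 8.24 with the control siRNA. Within each line its order was the same, lowest with siDKK2, next with siITM2A and highest with the control siRNA. The difference of siDKK2 from control was -0.65 in A673 cells and -1.05 in SK-N-MC cells, or 63.7% and 48.5% of the level with the control siRNA. The difference of siITM2A from control was -0.37 and -0.84, or 77.3% and 55.8%. Both comparisons use the same control arrays, so they are not separate results. RNA was taken from whole cultures, in which fewer cells holding a transcript and less of it per cell cannot be told apart.

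Fitted over both lines, DICER1 differed by -0.85 ± 0.15 with siDKK2 (SE, n = 2 lines; limma, adjusted p = 0.231 over all genes, 95% interval -1.20 to -0.50). It thus missed the threshold of 0.05, although the unadjusted p was 4.78e-04 and 0.195% of all genes had a smaller p. With siITM2A the difference was -0.61 ± 0.15 (limma, adjusted p = 0.646, unadjusted p = 0.00386, interval -0.96 to -0.26). Between the targeting siRNAs, which leaves the control values out of the difference, DICER1 was -0.24 ± 0.15 with siDKK2 relative to siITM2A (limma, adjusted p = 0.734), at -0.28 in A673 cells and -0.20 in SK-N-MC cells. The SK-N-MC control array held the highest DICER1 value of the 6. Without that array the siDKK2 difference was -0.63, and without the A673 control array -1.06. The corresponding siITM2A values were -0.39 and -0.82.

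**Figure D1:**
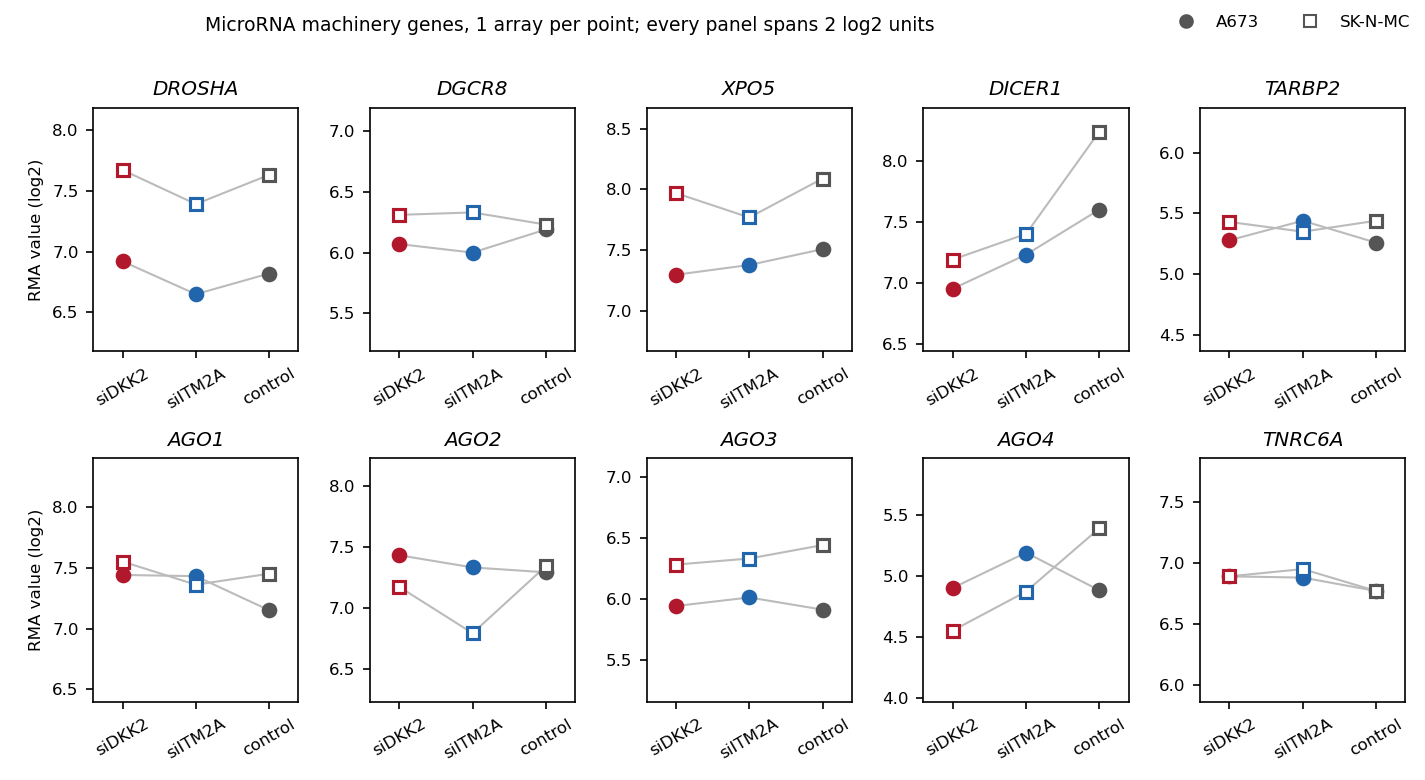
Level of the 10 machinery genes on every array, as the log2 RMA value on the vertical axis and the siRNA on the horizontal axis; filled circles are A673, open squares SK-N-MC, and grey lines join the arrays of a line. All panels span the same height. DICER1 has its highest value with the control siRNA in both lines, 7.60 and 8.24, and DROSHA and XPO5 keep the lines apart with every siRNA.

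Whether DICER1 shifted alone was asked by size, since no member passed the test with either siRNA. DKK2, the target of siDKK2, did not pass with it either (limma, -1.21 ± 0.17, adjusted p = 0.209). Missing the test therefore does not show that a gene was unchanged. With siDKK2, 0 of 10 members passed, where 0.0109% of all genes did, and 1 had an unadjusted p under 0.05, where 8.68% of all genes did (limma). With siITM2A likewise 0 of 10 passed beside 0.0109%, and 1 had an unadjusted p under 0.05 beside 6.91% (limma). DICER1 was that member in both. Between siDKK2 and siITM2A 0 of 10 passed beside 0.0163%, and 0 had an unadjusted p under 0.05 beside 8.32% (limma). The share of members at the unadjusted level was thus near that of all genes.

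By size, a log2 difference of at least 0.32 downward in both lines was met by DICER1 and by 0 of the other 9 members with siDKK2, beside 2.54% of all genes. The same held with siITM2A, beside 1.80% of all genes. At the stricter limit of 1.5-fold downward in both lines, DICER1 was kept with siDKK2, beside 0.418% of all genes (though not after centring the arrays on their medians), and not with siITM2A, beside 0.168%. Upward, 0 members met the limit of 0.32 with siDKK2 (1.11% of all genes) or siITM2A (0.912%), and 0 met 1.5-fold (0.0597% and 0.0869%). Between siDKK2 and siITM2A 0 members met the limit of 0.32 in both lines, beside 1.99% of all genes lower and 1.70% higher. A difference downward in both lines at least as large as that of DICER1 was seen for 53 genes with siDKK2, or 0.288% of all genes, DICER1 included, and for 205 genes with siITM2A, or 1.11%.

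The range over the 3 siRNAs within a line needs no choice of a group to compare with. DICER1 spanned 0.65 in A673, a range met or passed by 6.08% of all genes, and 1.05 in SK-N-MC, met or passed by 0.456%. For DICER1 these ranges are the sizes of the siDKK2 differences from control given above, so they are not a separate result. The other members spanned 0.10 to 0.30 in A673, where the median gene spanned 0.26. In SK-N-MC, AGO4 spanned 0.84 and AGO2 0.56, and the remaining 7 spanned 0.09 to 0.32, where the median gene spanned 0.25. DICER1 had the widest range of the members in both lines, with AGO4 next in each.

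**Figure D2:**
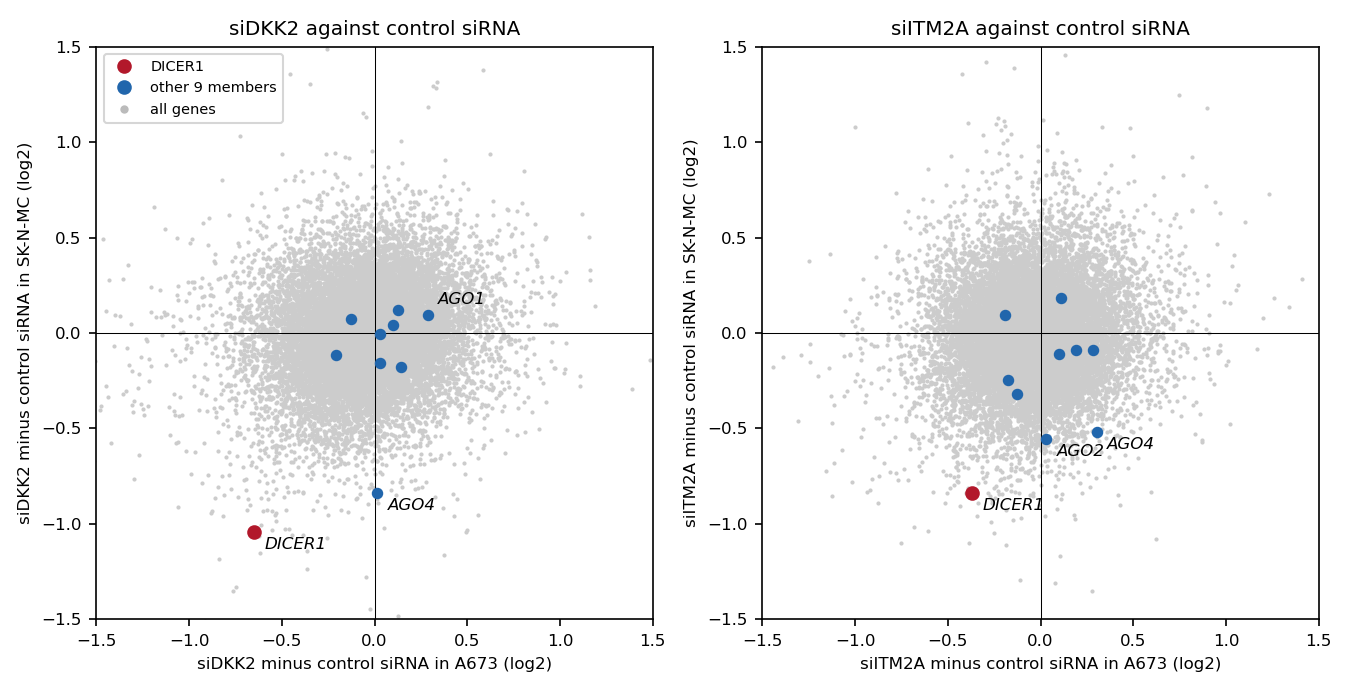
Difference from the control siRNA in A673 (horizontal axis) against SK-N-MC (vertical axis), in log2 units, for siDKK2 (left) and siITM2A (right); grey dots are all genes, with 60 and 14 genes beyond the axis limits of 1.5. DICER1 lies in the lower left in both panels, at -0.65 and -1.05 with siDKK2 and at -0.37 and -0.84 with siITM2A, and AGO4 at 0.01 and -0.84 with siDKK2.

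TARBP2, the double-stranded RNA-binding partner of DICER1, varied little. It measured 5.28 and 5.43 with siDKK2 and 5.44 and 5.35 with siITM2A, against 5.26 and 5.44 with the control siRNA in A673 and SK-N-MC. Its fitted difference was 0.01 ± 0.14 with siDKK2 (limma, adjusted p = 0.992, 95% interval -0.30 to 0.32). The interval for TARBP2 does not reach the -0.85 of DICER1. PRKRA, another DICER1 partner, named after its values were seen, measured 7.03 and 7.08 with siDKK2 and 7.08 and 7.18 with siITM2A, against 7.22 and 7.21 with the control siRNA.

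The nuclear nuclease, its partner and the export factor each had a pattern of their own. DROSHA measured 6.92 in A673 cells and 7.67 in SK-N-MC cells with siDKK2, and 6.65 and 7.39 with siITM2A, against 6.82 and 7.63 with the control siRNA. Its lowest value in each line was with siITM2A, and it differed by 0.28 ± 0.13 between siDKK2 and siITM2A (limma, adjusted p = 0.602; 0.27 in A673 cells and 0.29 in SK-N-MC cells). A difference as far upward in both lines was reached by 2.69% of all genes. DGCR8 measured 6.07 and 6.31 with siDKK2 and 6.00 and 6.33 with siITM2A, against 6.19 and 6.23 with the control siRNA, so the 2 lines ran in opposite directions. XPO5 measured 7.30 and 7.97 with siDKK2 and 7.38 and 7.77 with siITM2A, against 7.51 and 8.09 with the control siRNA, its highest value in each line. Its difference was -0.16 ± 0.14 with siDKK2 (limma, adjusted p = 0.783) and -0.23 ± 0.14 with siITM2A (limma, adjusted p = 0.824). XPO5 was thus lower in both lines with both siRNAs, as DICER1 was, but by less than 0.32 in A673.

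None of the 4 Argonaute genes passed with either siRNA, and their differences had mixed signs. AGO2, the slicing Argonaute, measured 7.43 in A673 cells and 7.17 in SK-N-MC cells with siDKK2 and 7.33 and 6.79 with siITM2A, against 7.29 and 7.34 with the control siRNA. Its low value was the SK-N-MC array with siITM2A, and its fitted difference with siITM2A was -0.26 ± 0.16 (limma, adjusted p = 0.827; 0.03 in A673 cells and -0.56 in SK-N-MC cells). AGO4 measured 4.90 and 4.55 with siDKK2 and 5.19 and 4.87 with siITM2A, against 4.88 and 5.39 with the control siRNA. It differed with siDKK2 by 0.01 in A673 and by -0.84 in SK-N-MC, for a fitted -0.41 ± 0.21 (limma, adjusted p = 0.624). That difference lay in SK-N-MC: without the SK-N-MC control array AGO4 stood at 0.01, and without the A673 control array at -0.83. Each of these fits returns nearly the value of the other line, so they do not show which array the difference rests on.

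AGO1 measured 7.44 and 7.55 with siDKK2 and 7.43 and 7.36 with siITM2A, against 7.15 and 7.45 with the control siRNA, and differed by 0.19 ± 0.14 with siDKK2 (limma, adjusted p = 0.746). AGO3 measured 5.94 and 6.28 with siDKK2 and 6.01 and 6.33 with siITM2A, against 5.91 and 6.44 with the control siRNA. AGO4, AGO1 and AGO3 follow one another, in that order, among the protein-coding genes of chromosome 1 in the GRCh38.p14 annotation, and in SK-N-MC they spanned 0.84, 0.19 and 0.16 over the 3 siRNAs. TNRC6A was even across lines, at 6.89 in both lines with siDKK2 and 6.88 and 6.95 with siITM2A, against 6.77 in both lines with the control siRNA. Its difference with siDKK2 was 0.12 ± 0.13 (limma, adjusted p = 0.834; 0.13 in A673 cells and 0.12 in SK-N-MC cells).

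Over the 10 members the median difference with siDKK2 was -0.02, equal to the -0.02 of all genes, and with siITM2A -0.08, beside -0.03 of all genes. By line it was 0.03 in A673 cells and -0.06 in SK-N-MC cells with siDKK2, and 0.07 and -0.18 with siITM2A. Of the 6 arrays, the SK-N-MC control array held the highest value of 4 members (DICER1, XPO5, AGO3 and AGO4) and the lowest of 0. The A673 control array held the lowest value of 4 members (TARBP2, AGO1, AGO3 and TNRC6A) and the highest of 0. The same was not counted over all genes, so these counts are not shown to be particular to the members.

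The genes whose pattern was most like that of DICER1 were sought over the 6 arrays after subtracting each line's own mean, among 9208 genes at or above the median level. The 5 closest were P2RX4, MT1G, ZNF620, FXYD5 and KBTBD2, with root-mean-square distances of 0.080 to 0.098. MT1G, a metallothionein gene, measured 7.68 in A673 cells and 6.00 in SK-N-MC cells with siDKK2 and 7.82 and 6.05 with siITM2A, against 8.12 and 6.83 with the control siRNA. P2RX4, an ATP-gated ion channel gene, differed by -0.48 and -0.93 with siDKK2. Among the members AGO4 was the nearest to DICER1, at a distance of 0.242 and in place 329, and AGO1 the farthest, at 0.435 and in place 7038.

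The genes that work with these 10 were counted in lists of their own. With siDKK2, 0 of 14 measured biogenesis cofactors passed the test (limma, 2 at an unadjusted p under 0.05; median difference -0.04), 0 of 14 Argonaute partners and loading factors (0 at that level; -0.05), 0 of 21 silencing effectors (2; -0.12) and 0 of 9 genes of microRNA tailing and decay (2; -0.14), beside a median of -0.02 over all genes. KHSRP, an RNA-binding protein that promotes processing of some precursors, stood at 0.44 in A673 cells and 0.42 in SK-N-MC cells. The importin IPO8, which binds Argonaute, stood at -0.30 and -0.28, the poly(A) nuclease subunit gene PAN2 at -0.30 and -0.39, the CCR4-NOT subunit gene CNOT11 at -0.42 and -0.28, and the poly(A) polymerase gene TENT2 at -0.40 and -0.43. None of these passed the test. The exoribonuclease gene XRN2 stood at -0.20 and -0.24, the cap-binding gene EIF4E2 at -0.08 and -0.21, and the helicase gene MOV10 at -0.26 and -0.07. These were named as the genes of each list with the largest differences shared by both lines, whatever the size. A difference as far downward in both lines was reached by 7.05% of all genes for XRN2, 18.4% for EIF4E2 and 19.5% for MOV10. For the genes named before them the share ran from 0.353% (KHSRP, upward) to 3.84% (CNOT11, downward). The lowest fitted values of their lists, named after they were seen, lay mostly in A673: ADAR, the double-stranded RNA editor gene, stood at -0.77 and -0.27 (limma, fitted -0.52 ± 0.18, adjusted p = 0.479) and the exoribonuclease gene PNPT1 at -1.33 and -0.08 (limma, fitted -0.71 ± 0.26, adjusted p = 0.516).

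With siITM2A the counts were 0 of 14 cofactors (limma, 0 at an unadjusted p under 0.05; median -0.05), 0 of 14 Argonaute partners (1; -0.08), 0 of 21 effectors (3; -0.10) and 0 of 9 tailing and decay genes (1; -0.11), beside -0.03 over all genes. LIN28B, which binds let-7 precursors and blocks their processing, measured 5.62 in A673 cells and 6.17 in SK-N-MC cells with siITM2A, against 6.27 and 6.78 with the control siRNA. Its fitted difference was -0.63 ± 0.23 (limma, adjusted p = 0.707). With siDKK2 LIN28B stood at -1.02 in A673 cells and -0.03 in SK-N-MC cells. ADAR stood at -0.21 and -0.42 with siITM2A, PNPT1 at -0.55 and -0.31, and the deadenylase genes CNOT6 at -0.28 and -0.37 and CNOT6L at -0.27 and -0.28. FMR1, an RNA-binding protein gene of the Argonaute partners, stood at 0.13 and 0.62. None of these passed the test.

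Between siDKK2 and siITM2A 0 genes of these 4 lists passed (limma, 0 cofactors, 1 Argonaute partner, 1 effector and 1 tailing and decay gene at an unadjusted p under 0.05), with medians of -0.02 for cofactors, 0.07 for Argonaute partners, 0.02 for effectors and -0.05 for tailing and decay. FMR1 stood at -0.23 in A673 cells and -0.66 in SK-N-MC cells, TENT2 at -0.37 and -0.24, the CCR4-NOT subunit gene CNOT10 at -0.25 and -0.45, and the nuclear exportin gene XPO1 at -0.28 and -0.15.

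**Figure D3:**
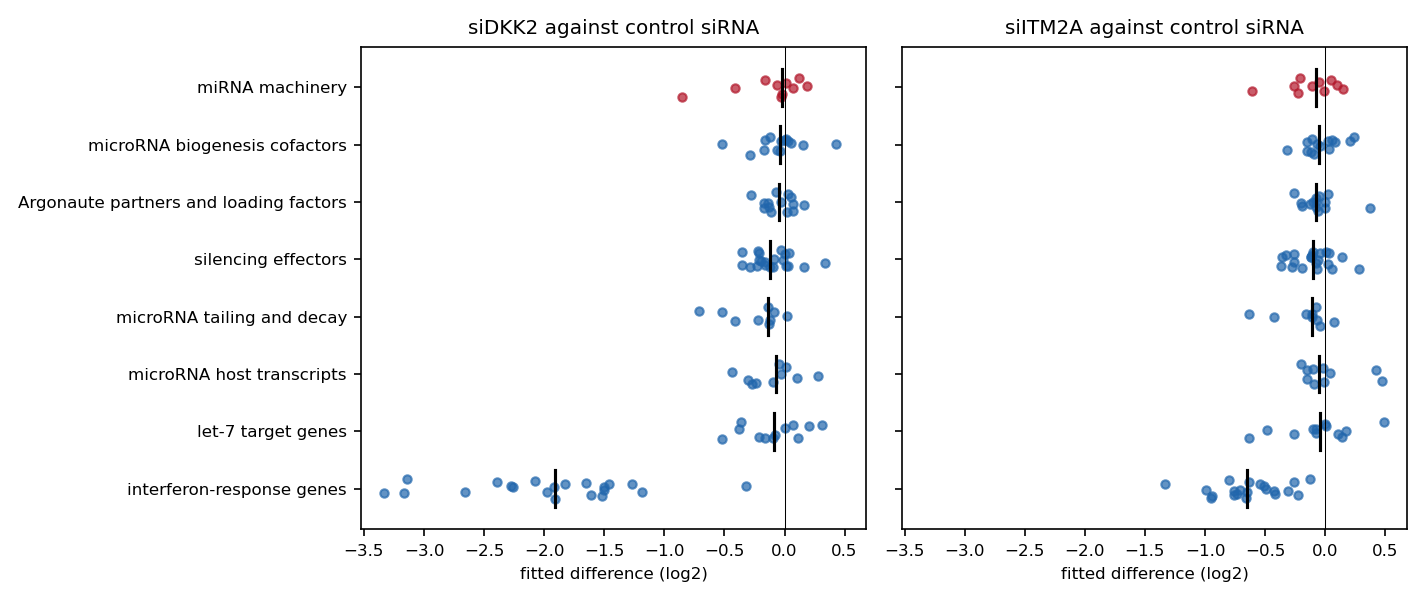
Fitted log2 difference over both lines for each measured gene of a list (points) and the list's median (black bar), for siDKK2 (left) and siITM2A (right) against the control siRNA. The machinery median is -0.02 with siDKK2 and -0.08 with siITM2A with DICER1 at the low end, and the interferon-response median is -1.91 and -0.65.

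Interferon-response genes, which cells switch on when they sense foreign RNA, had the largest median difference of the lists. Their median difference with siDKK2 was -2.97 in A673 cells and -0.87 in SK-N-MC cells over 21 measured genes, and with siITM2A -0.94 and -0.28. With siDKK2 0 of 21 passed (limma, 20 at an unadjusted p under 0.05, lowest adjusted p = 0.0566), and with siITM2A 0 of 21 (limma, 3 at an unadjusted p under 0.05, lowest adjusted p = 0.707). IFIT1 stood at -4.71 and -1.95 with siDKK2 and OAS1 at -4.63 and -1.66, and with siITM2A MX1 stood at -1.67 and -0.99. Their median level with siDKK2, siITM2A and control siRNA was 4.19, 5.85 and 6.43 in A673, and 3.68, 4.16 and 4.48 in SK-N-MC. That is the order of DICER1 in both lines. By value the larger interferon difference was in A673 and the larger DICER1 difference in SK-N-MC, and neither difference between the lines was tested. The part of either in the other was not tested.

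Promoter sequence was compared for the element GAAA, any 2 bases and again GAAA, on either strand, the core of the interferon-stimulated response element, over 300-base windows from 250 bases before to 50 after each RefSeq start. Of 35116 such windows 3.57% held it. It was found in a window of 14 of 17 interferon-response genes with an entry, or 82.4%, and of 587 of 14239 tested genes with an entry, or 4.12%. It was found in 0 of the 15 windows of the 9 machinery genes with an entry, the 5 windows of DICER1 included; AGO2 had no entry. With 3.57% of all windows holding the element, 0 of 15 is near the share of all windows. No match says only that these letters are not in these windows. The 250 bases before the outermost DICER1 start (chr14:95158011-95158260, GRCh38.p14, minus strand) and before the IFIT1 start (chr10:89392373-89392622, plus strand) are shown for contrast, with the element in capitals as it reads on the printed strand, where it appears as its reverse complement.
DICER1: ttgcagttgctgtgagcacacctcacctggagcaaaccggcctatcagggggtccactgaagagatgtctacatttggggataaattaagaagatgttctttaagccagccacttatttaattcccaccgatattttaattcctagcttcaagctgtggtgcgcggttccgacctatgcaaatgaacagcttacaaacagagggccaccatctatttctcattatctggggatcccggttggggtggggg
IFIT1: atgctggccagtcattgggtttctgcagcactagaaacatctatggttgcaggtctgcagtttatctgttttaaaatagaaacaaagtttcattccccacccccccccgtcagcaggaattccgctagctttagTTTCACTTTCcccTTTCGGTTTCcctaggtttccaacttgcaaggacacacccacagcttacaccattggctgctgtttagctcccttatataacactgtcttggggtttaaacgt
IFIT1 holds the element in 2 places and measured 3.41 in A673 cells and 3.15 in SK-N-MC cells with siDKK2 and 7.39 and 4.81 with siITM2A, against 8.12 and 5.10 with the control siRNA.

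MicroRNA transcripts themselves were read through host genes and precursor probe sets, which do not measure the mature strand. With siDKK2, 0 of 10 host transcripts passed (limma, 0 at an unadjusted p under 0.05; median -0.07), and with siITM2A 0 of 10 (limma, 1; median -0.05). DLEU2, host of miR-15a and miR-16-1, stood at 0.28 in both lines with siDKK2 and at 0.14 and 0.70 with siITM2A. MIR22HG stood at -0.23 and -0.31 with siDKK2. The non-coding MEG3 stood at 0.18 and 0.77 with siITM2A, and with siDKK2 at -0.98 in A673 cells and 0.49 in SK-N-MC cells. The miR-21 precursor, likewise given after its values were seen, stood at -1.06 and 0.18 with siDKK2 and at -0.52 and 0.12 with siITM2A, so both had opposite signs in the lines with siDKK2. In SK-N-MC, however, the values with siDKK2 and control siRNA were 2.47 and 2.30 for miR-21 and 3.59 and 3.10 for MEG3. All lay below the median gene, those of miR-21 at the level of markers of other tissues, so the signs in SK-N-MC are uncertain. Precursor probe sets grouped by the seeds printed above were chosen after values were seen: the 3 with the miR-103 and miR-107 seed lay between 1.91 and 2.92, and the 10 with the let-7 seed between 1.77 and 4.42. The first group lay wholly below the median gene, 4.04. Every let-7 precursor also had a mean below it, the highest being MIRLET7D at 4.02.

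Among 12 measured let-7 target genes 0 passed with siDKK2 (limma, 1 at an unadjusted p under 0.05; median -0.09) and 0 with siITM2A (limma, 3; median -0.04). The cell cycle factor gene E2F5 stood at -0.22 and -0.55 with siDKK2 and the RNA-binding protein gene IGF2BP2 at 0.16 and 0.24. ARID3B, a DNA-binding protein gene, stood at 0.41 and 0.58 with siITM2A. LIN28B belongs to this list too. CDC25A, a cell cycle phosphatase gene named after its values were seen, stood at -0.12 and -0.84 with siITM2A (limma, fitted -0.48 ± 0.18, adjusted p = 0.707). Unadjusted counts of a list stand beside 8.68% of all genes with siDKK2 and 6.91% with siITM2A.

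Between the lines, 3 machinery genes differed, each lower in A673 than in SK-N-MC. The test passed 3 of 10 members, beside 28.5% of all genes (13.8% higher in A673 and 14.7% lower), and 4 of 10 had an unadjusted p under 0.05, beside 37.0%. The share of members was near that of all genes. All 10 members, however, lay above the median gene. In a fit limited to the 9209 genes at or above that level, 4 of 10 members passed, beside 48.6% of those genes. The arrays of a line are 3 siRNA treatments and the block was the siRNA. DROSHA averaged 6.80 ± 0.14 in A673 arrays and 7.56 ± 0.16 in SK-N-MC arrays (SD, n = 3 arrays), a difference of -0.77 ± 0.10 (SE; limma, adjusted p = 6.31e-04). By siRNA the A673 minus SK-N-MC difference was -0.75 with siDKK2, -0.74 with siITM2A and -0.81 with the control siRNA, the most even of the members that passed. XPO5 averaged 7.39 ± 0.11 in A673 arrays and 7.94 ± 0.16 in SK-N-MC arrays, a difference of -0.55 ± 0.11 (limma, adjusted p = 0.00562). AGO3 averaged 5.95 ± 0.05 in A673 arrays and 6.35 ± 0.08 in SK-N-MC arrays, a difference of -0.39 ± 0.11 (limma, adjusted p = 0.0244). The AGO3 call was lost when any 1 array was left out, with differences of -0.43 to -0.33 and adjusted p-values of 0.0655 to 0.119.

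The arrays of the 2 lines did not overlap for 4 members, DROSHA, DGCR8, XPO5 and AGO3, all lower in A673, beside 20.8% of all genes in that direction and 18.1% in the other. DGCR8 averaged 6.09 ± 0.10 in A673 arrays and 6.29 ± 0.05 in SK-N-MC arrays and did not pass (limma, -0.20 ± 0.11, adjusted p = 0.231). DICER1 averaged 7.26 ± 0.33 in A673 arrays and 7.61 ± 0.55 in SK-N-MC arrays, a difference of -0.35 ± 0.12 that missed the threshold (limma, adjusted p = 0.0737). It was -0.24 with siDKK2, -0.16 with siITM2A and -0.63 with the control siRNA. DICER1 passed with an intensity trend in the moderation (limma, adjusted p = 0.0398) and among genes at or above the median level (limma, adjusted p = 0.0496), and the range over its alternatives was 0.0398 to 0.415. Without either control array its difference was -0.20.

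**Figure D4:**
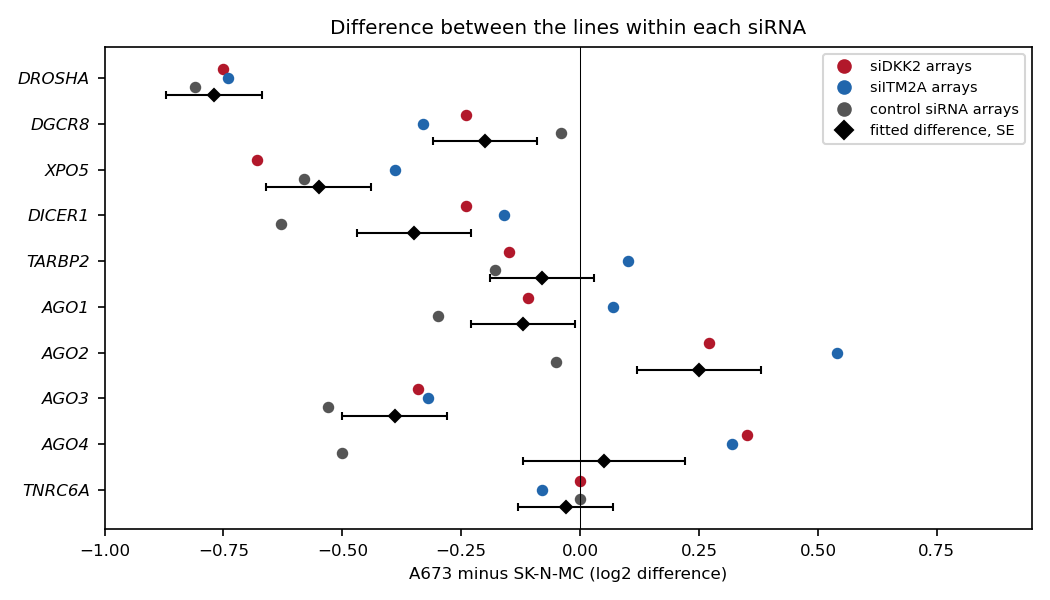
A673 minus SK-N-MC in log2 units for the 10 machinery genes, as 1 point per siRNA and the fitted difference with its SE (black diamonds). DROSHA, XPO5 and AGO3 lie left of 0 with every siRNA, and AGO4 lies at 0.35 and 0.32 with the targeting siRNAs and at -0.50 with the control siRNA.

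The remaining members did not pass between the lines. AGO2 was higher in A673 by value, at 7.35 ± 0.07 in A673 arrays and 7.10 ± 0.28 in SK-N-MC arrays (limma, 0.25 ± 0.13, adjusted p = 0.217). AGO1 differed by -0.12 ± 0.11, TARBP2 by -0.08 ± 0.11, AGO4 by 0.05 ± 0.17 and TNRC6A by -0.03 ± 0.10. The AGO4 difference ran one way with the control siRNA, -0.50, and the other with siDKK2, 0.35, and siITM2A, 0.32.

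Of the partner lists, the silencing effectors had 11 of 21 genes past the test between the lines, or 52.4% beside 28.5% of all genes, 5 higher and 6 lower in A673. All 21 effectors lay at or above the median gene, and in a fit limited to genes at that level 48.6% of those genes passed. The shares of the other lists were near or below that of all genes: 21.4% of cofactors, 28.6% of Argonaute partners and 22.2% of tailing and decay genes. Of these genes 14 of 14, 13 of 14 and 8 of 9 lay at or above the median gene. Their shares lay below the 48.6% of the limited fit. List counts here and below come from the fit of all genes, and the lists were not counted in the limited fit. The deadenylase genes CNOT8 and CNOT6L were lower in A673, at -1.21 ± 0.12 (limma, adjusted p = 1.52e-04) and -1.17 ± 0.13 (limma, adjusted p = 2.11e-04), and the RNA helicase gene DDX6 higher, at 0.76 ± 0.14 (limma, adjusted p = 0.00347). Biogenesis cofactors had 3 of 14 past the test, all lower in A673: IPO8 (-0.56), the cap-binding gene NCBP2 (-0.46) and ERH (-0.43). Of 14 Argonaute partners 2 were higher and 2 lower, led by the LIM-domain genes AJUBA (1.13), LIMD1 (-0.87) and WTIP (0.72), which belong to 1 family. Tailing and decay genes had 2 of 9 lower in A673, LIN28B at -0.85 ± 0.19 (limma, adjusted p = 0.00931) and TENT2 at -0.33 ± 0.10.

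The precursor of miR-21, a microRNA abundant in many tumours, was higher in A673. Its probe set measured 3.98, 4.52 and 5.04 in A673 with siDKK2, siITM2A and control siRNA, against 2.47, 2.42 and 2.30 in SK-N-MC. The lines did not overlap, and the difference was 2.12 ± 0.20 (limma, adjusted p = 1.06e-04). The SK-N-MC values lay at the level of markers of other tissues, such as CDH1 with a mean of 2.44, so no level above background was shown there and the difference is not a measured fold. VMP1, the gene that overlaps the miR-21 transcript, differed by 0.35 (limma, adjusted p = 0.0433), and the non-coding MEG3 by 1.88 ± 0.23 (limma, adjusted p = 4.38e-04). MEG3 measured 3.59, 3.86 and 3.10 in SK-N-MC with siDKK2, siITM2A and control siRNA. All lay below the median gene, so the size of its difference is uncertain. In all 3 of 10 host transcripts passed, a share near the 28.5% of all genes, each higher in A673. Of 12 let-7 target genes 1 was higher and 5 lower in A673, beside 13.8% and 14.7% of all genes, among them CCND1 (1.23), LIN28B (-0.85) and HMGA1 (-0.80). Of these 12, 11 lay at or above the median gene, and 48.6% of genes passed in the fit limited to that level. Of 21 interferon-response genes 15 were higher in A673, or 71.4% beside 13.8% of all genes, and 0 lower, led by OAS3 at 2.42 and RIGI at 2.39. Of these 21, 18 lay at or above the median gene, and 2113 of 9209 genes were higher in the fit limited to that level.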

How the data were processed

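Biotin-labelled, amplified RNA was read on whole-transcript arrays, per the labels. Expression Console and RMA are the tools named in the submitters' processing notes. Not given in the sources used here were their versions, the settings and the genome build. The deposited values were taken as log2 RMA values, read from their range of 1.02 to 13.4. RMA compresses differences of dim probe sets, and the number of arrays limits the precision.

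All 6 columns of the table matched a sample, with 0 unused. Of 33297 probe sets, 19460 had 1 symbol, 1754 several and 12083 were not listed. The 19429 Entrez numbers found in the current gene table changed 0 symbols. For 769 genes with several probe sets the highest mean was kept.

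Tests used limma 3.58.1 in R 4.3.3 on all genes and 6 arrays, with the siRNA and the line in the model, 2 residual degrees of freedom (8.28 after moderation) and Benjamini-Hochberg adjustment over all genes. The lines pair the arrays, per the labels, and were kept as the block. The fit was tested on simulated data.

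The members and lists were chosen with earlier results of these data known. Named are all members, DKK2 and ITM2A, the 5 genes nearest DICER1 and, per list and comparison, genes past the threshold or else those with the largest difference shared in direction by both lines; others are marked as named after their values were seen. Of the listed genes, those missing from the counts are not analysed here. Alternatives are in the closing section.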

Additional observations from a re-analysis of the deposited data

Results flagged for a closer look

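With 1 array per line and siRNA the difference between the lines in a response was not tested; the following members moved in opposite directions in A673 and SK-N-MC by value. With siDKK2 against control these were AGO4 (0.01 in A673 and -0.84 in SK-N-MC), AGO2 (0.14 and -0.18), AGO3 (0.03 and -0.16), DGCR8 (-0.13 and 0.08) and TARBP2 (0.03 and -0.01). With siITM2A against control they were AGO4 (0.30 and -0.52), AGO2 (0.03 and -0.56), AGO1 (0.28 and -0.09), DGCR8 (-0.19 and 0.09), TARBP2 (0.19 and -0.09) and AGO3 (0.10 and -0.11). Between siDKK2 and siITM2A they were XPO5 (-0.08 and 0.21), TARBP2 (-0.16 and 0.08), DGCR8 (0.07 and -0.02) and TNRC6A (0.02 and -0.06). AGO4 and AGO2 in SK-N-MC are the largest of these values.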

How the results depend on the processing

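The count of 0 members past the threshold with either siRNA, and between them, held under every alternative run, and between the lines the count was 2 to 4, against 3. DROSHA and XPO5 passed between the lines under all 12. Over all genes, siDKK2 against control gave 2 calls, 0 with no replicate block, 7 with an intensity trend, 0 in the 4 arrays compared alone and 0 to 60 with an array left out. Of siITM2A against control 2 calls became 0 with no replicate block and 0 to 4 with an array left out. Between siDKK2 and siITM2A 3 became 0 with no replicate block, 16 with a trend, 6 among genes at or above the median level, 18 in the 4 arrays alone and 1 to 50 with an array left out. The cause was not tested. With no replicate block the siDKK2 difference of DICER1 had an adjusted p of 1.00 (limma), and over its 13 alternatives the lowest was 0.0665 with a trend. With siITM2A 1 member, DICER1, met a log2 difference of 0.32 in both lines, and 0 members met 1.5-fold. Centred arrays gave 368 genes lower and 281 higher by 0.32 in both lines with siDKK2, against 468 and 204, and took DICER1 under 1.5-fold; repeated quantile normalization gave 251 and 237 with siITM2A, against 331 and 168.

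Some differences changed sign, most of them near 0; AGO4 with siDKK2, fitted at -0.41, did so without the SK-N-MC control array. With siDKK2 against control DGCR8 was 0.01 with centred arrays and 0.02 with repeated quantile normalization, and AGO2 was 0.02 under each. With siITM2A repeated quantile normalization gave DGCR8 0.01 and AGO3 0.06, and between the siRNAs centring gave TNRC6A 0.01. With an array left out, the siDKK2 ranges were -0.15 to 0.10 (DGCR8), -0.07 to 0.09 (TARBP2), -0.24 to 0.21 (AGO2), -0.16 to 0.04 (AGO3) and -0.83 to 0.01 (AGO4). The siITM2A ranges were -0.17 to 0.07 (DGCR8), -0.08 to 0.18 (TARBP2), -0.05 to 0.24 (AGO1), -0.11 to 0.09 (AGO3) and -0.53 to 0.31 (AGO4). Between the siRNAs they were -0.07 to 0.12 (DGCR8), -0.06 to 0.18 (XPO5), -0.17 to 0.09 (TARBP2), -0.04 to 0.23 (AGO1) and -0.06 to 0.01 (TNRC6A), and between the lines -0.09 to 0.33 for AGO4. Fits that leave out an array lean on the other line and add no replication.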
